A study of Rattus norvegicus with 17 samples.

Results

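Messenger RNA of kinesins, cytoplasmic dynein and dynactin was followed in rat primary cortical cultures, which hold glutamatergic neurons and astrocytes. Every gene label that starts with Kif followed by a digit or c, with Klc and a digit, or with Dync, Dynl or Dctn was taken, which gave 49 of the 11247 genes in the deposited table. Of these, 32 were placed on an axonal transport list, 8 on a mitotic list and 9 on neither. The transport list holds 13 cargo kinesins, 3 kinesin light chains, 5 subunits of dynein 1, 5 dynein light chains and 6 dynactin subunits. Kif1a, Kif17, Kif21a, Klc2 and the mitotic Kif2c, Kif4a and Kif20a were not analysed here.

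The cultures carried α-synuclein-A53T, a variant, linked to familial Parkinson's disease, of a synaptic protein that forms aggregates there, or an empty control vector. FK506, a drug whose complex with FKBP12 blocks calcineurin, a phosphatase switched on by calcium, was given at 0.2 µM, below saturation per the labels, or at the saturating 2.0 µM. DMSO, its solvent, was the control. The 6 groups were A53T at 0.2 µM, A53T at 2.0 µM, A53T in DMSO, vector at 0.2 µM, vector at 2.0 µM and vector in DMSO. Each group had 3 libraries except A53T in DMSO, which had 2, for 17 in all. The second library of A53T in DMSO carries different numbers in the title and in the table, and is called the unnumbered library.

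Kinesins walk along microtubules and carry cargo, mostly towards the plus end, which in an axon points to the synapse. Cytoplasmic dynein 1 walks the other way, carries signalling endosomes and autophagosomes back to the cell body, and needs the dynactin complex to bind cargo and move over long distances. Another group of kinesins builds the spindle of dividing cells, though several of them, such as Kif11, Kif15 and Kif23, also act in postmitotic neurons. Kif1bp, the kinesin-binding protein, is no motor: it binds kinesin motor domains and keeps them off microtubules.

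Promoters were compared because mitotic genes are known to share short cell cycle elements. Windows of 250 bases before to 50 bases after a gene's start, taken from RefSeq on build GRCr8, were found for 38 of the 49 genes, including all 8 mitotic and 24 of the 32 transport genes. The cell cycle genes homology region (CHR, searched as TTTGAA or TTCGAA on both strands) is bound by complexes that repress and activate genes of dividing cells. The CCAAT box (CCAAT, both strands) is bound by NF-Y, and the cAMP response element (CRE, TGACGTCA, its own reverse complement) by CREB. A CHR stood in the windows of 5 of 8 mitotic genes (Kif15, Kif20b, Kif22, Kif23 and Kifc1), of 1 of 24 transport genes (Dctn1) and in 19.7% of all 33469 windows of the table. CCAAT was found for 5 of 8 mitotic and 9 of 24 transport genes, against 37.5% of all windows. The full CRE was found for 2 of 8 mitotic genes (Kif15 and Kif18a), for 3 of 24 transport genes (Dctn3, Kif5c and Klc1) and in 1.83% of all windows. Klc1 has 3 windows, any of which could match, while the background is counted per single window. TGATGNAA, an element bound by ATF4 (both strands), was found for 0 of the 38 genes and in 3.98% of all windows. Such matches describe letters in a window and show no binding. The 3 mitotic windows below hold both a CHR and a CCAAT box, in capitals on either strand. The Kif5c window, of a neuronal kinesin heavy chain, holds a CRE, in capitals. They lie at chr1:191080829-191081128 (minus strand), chr20:5000679-5000978 (plus), chr8:71320535-71320834 (minus) and chr3:54441057-54441356 (plus), and read 5′ to 3′ along the gene.
Kif22: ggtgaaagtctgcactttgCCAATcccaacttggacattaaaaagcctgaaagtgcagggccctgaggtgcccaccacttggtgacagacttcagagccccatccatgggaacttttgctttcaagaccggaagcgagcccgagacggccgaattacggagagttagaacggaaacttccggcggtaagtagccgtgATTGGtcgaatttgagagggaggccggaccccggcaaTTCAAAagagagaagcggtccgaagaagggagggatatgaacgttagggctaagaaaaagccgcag
Kifc1: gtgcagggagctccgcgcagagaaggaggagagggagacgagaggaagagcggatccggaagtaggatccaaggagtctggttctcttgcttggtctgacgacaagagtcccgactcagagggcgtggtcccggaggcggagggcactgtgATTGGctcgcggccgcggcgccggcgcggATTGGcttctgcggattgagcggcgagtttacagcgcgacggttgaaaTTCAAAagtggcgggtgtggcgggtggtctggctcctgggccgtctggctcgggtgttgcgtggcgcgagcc
Kif23: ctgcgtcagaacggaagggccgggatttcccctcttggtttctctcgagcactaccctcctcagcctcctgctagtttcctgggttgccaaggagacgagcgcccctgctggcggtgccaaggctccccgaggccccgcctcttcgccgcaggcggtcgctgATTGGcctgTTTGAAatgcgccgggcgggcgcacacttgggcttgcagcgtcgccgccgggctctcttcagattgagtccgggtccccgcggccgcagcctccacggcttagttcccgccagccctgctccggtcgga
Kif5c: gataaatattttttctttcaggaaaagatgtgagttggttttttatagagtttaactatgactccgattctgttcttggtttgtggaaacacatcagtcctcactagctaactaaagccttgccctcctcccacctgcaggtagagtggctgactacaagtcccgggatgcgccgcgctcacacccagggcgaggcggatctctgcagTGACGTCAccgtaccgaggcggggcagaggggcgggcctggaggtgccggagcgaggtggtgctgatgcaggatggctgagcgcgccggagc

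Values in the table are normalized gene counts, as deposited by the authors. They sum to between 15091428 and 18335540 per library, are not divided by gene length, and are not compared between genes here. The raw depth is unknown. Markers of neurons (8 of 8) and astrocytes (7 of 7) were measured, none at 0 in any library, while 0 of 6 microglia markers were in the table. Marker levels differed with FK506. The summed level at 2.0 µM in vector was 33478.3 to 35786.0 for neurons, against 48894.6 to 52684.0 in DMSO, and 31433.1 to 32537.1 for astrocytes, against 77148.1 to 79580.4. In A53T at 2.0 µM the sums were 36244.0 to 40591.5 against 46539.1 to 47422.3 for neurons, and 30289.8 to 32787.7 against 67756.9 to 71188.0 for astrocytes. Oligodendrocyte lineage markers (6 of 7 measured) summed to 1481.5 to 1549.3 at 2.0 µM in vector, against 3287.3 to 3300.2 in DMSO, and to 4100.7 to 4194.0 at 2.0 µM in A53T, against 2836.4 to 2845.1, so they lay lower in vector and higher in A53T. Fibroblast and meningeal markers (4 of 5) summed to 390.3 to 402.7 against 837.8 to 898.6 in vector, and to 217.8 to 291.1 against 461.2 to 552.0 in A53T. In bulk RNA, fewer cells of a type and less RNA per cell cannot be told apart, and the part of these markers in the results below was not tested.

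Libraries also stood apart. Deviations from the group means over the 14 libraries outside A53T at 0.2 µM shared a leading axis with 54.3% of the within-group variance, scored here in SD units with vector in DMSO centred at 0. The 3 libraries of A53T at 0.2 µM scored 5.616 to 5.67 and all others −2.73 to 1.721. Within their groups, 3 libraries stood apart: in A53T at 2.0 µM replicate 1 (−2.73), among the vector libraries at 0.2 µM replicate 1 (−0.305), and among those at 2.0 µM replicate 2 (−0.998). With normalized values taken as if they were reads, the 3 libraries of A53T at 0.2 µM differed from each other by 0.995 to 1.05 times Poisson sampling noise. Within other groups the ratio was 1.478 to 14.454. It scales with the unknown factor between normalized values and reads, so it is approximate. These 3 libraries were counted as 1 sample by their mean. Results for the motor genes are given below with and without the 3 libraries that stood apart where that moves them. Other gene lists were not recounted without them. Because these libraries stood apart on an axis drawn from the same values, leaving them out narrows the scatter of genes that follow it. Calls gained that way are no independent support.

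At 2.0 µM FK506 in vector cultures, the calls did not run in 1 direction through the motor machinery. The kinesin light chains Klc3 and Klc4, a dynein light intermediate chain and a dynein light chain rose, while the neuronal dynein intermediate chain, an LC8 light chain, 3 dynactin subunits and Kif1bp fell. Of the 49 genes, 8 rose and 13 fell at an adjusted p under 0.05 (limma, adjusted over all genes), which is 42.9% of them, against 47.2% of all genes called in this comparison (23.4% higher and 23.8% lower). The share is near the background. On the transport list 5 of 32 rose and 10 fell, with a median log2 fold change of −0.025, against 0.001 over all genes. Without the 3 libraries that stood apart, 11 of the 49 rose and 15 fell, against 61.2% of all genes called, and the transport median was 0.116, as it was without replicate 2 of vector at 2.0 µM alone.

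**Figure D1:**
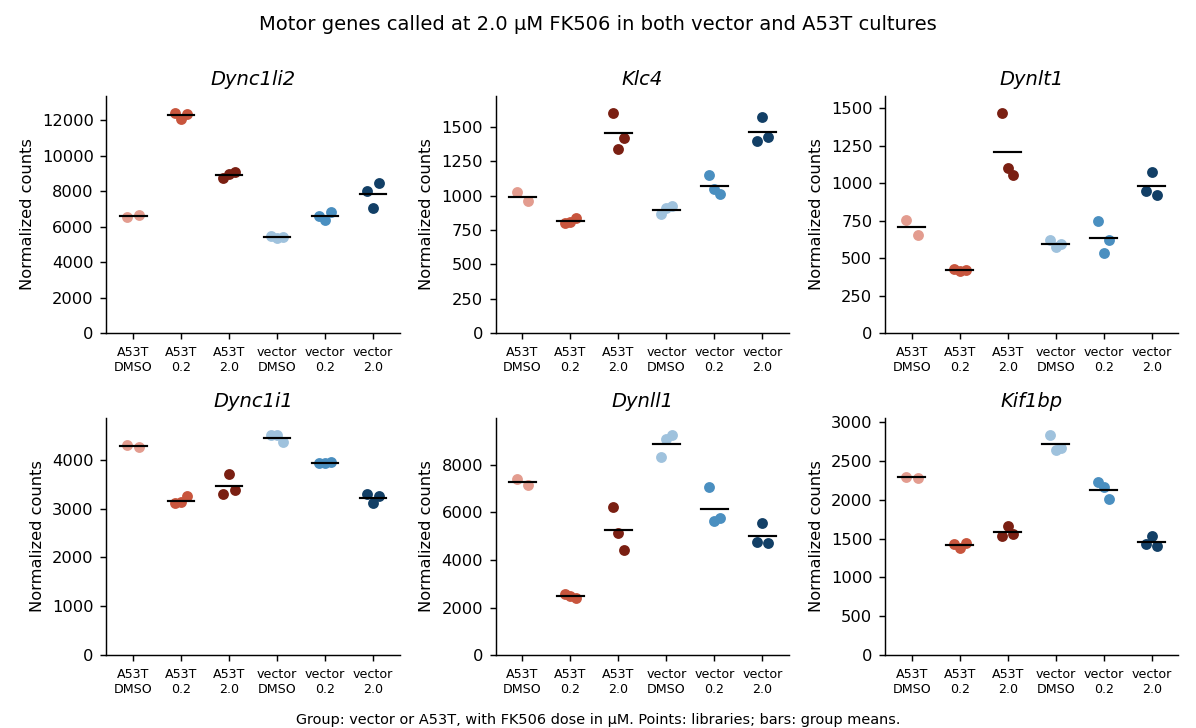
Normalized counts (vertical axes, from 0) of 6 motor genes in every library, by group along the horizontal axis with the FK506 dose in µM; points are libraries and bars are group means. Dync1li2, Klc4 and Dynlt1 lie higher at 2.0 µM than in DMSO in both A53T and vector cultures, and Dync1i1, Dynll1 and Kif1bp lie lower.

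Among kinesin parts, the light chains, which link conventional kinesin to cargo, all passed the test at 2.0 µM in vector, in different directions. Klc4 had 865, 907 and 925 normalized counts in DMSO, 1149, 1047 and 1012 at 0.2 µM and 1398, 1572 and 1425 at 2.0 µM. Each dose stood above the one before it with no overlap. Over all genes, libraries did not overlap in 38.7% between 0.2 µM and DMSO, in 60.5% between 2.0 µM and DMSO and in 45.2% between the doses. Klc4 rose at 2.0 µM (log2 fold change 0.70 ± 0.077 SE, limma adjusted p 1.2e-05) and kept that call in all 29 alternatives. Klc1, the main neuronal light chain, had 29034, 30204 and 30483 in DMSO, 27416, 24755 and 25003 at 0.2 µM and 23147, 24873 and 23275 at 2.0 µM. It fell at 2.0 µM (log2 fold change −0.33 ± 0.063 SE, limma adjusted p 0.00081), and its values at 0.2 and 2.0 µM overlapped. Klc3, a light chain best known from testis, was among the lowest values in the table, with 28.3, 31.2 and 29.3 at 2.0 µM, against 7.8, 13.3 and 10.5 in DMSO (log2 fold change 1.44 ± 0.32 SE, limma adjusted p 0.0023). In every library outside vector at 2.0 µM it lay at 20.1 or less.

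The heavy chains that those light chains serve were not called. Kif5a, a neuronal heavy chain of conventional kinesin, had 3829.7, 2085 and 4352 at 2.0 µM in vector, against 4009.8, 3014 and 2977 in DMSO (log2 fold change −0.017 ± 0.43 SE, limma adjusted p 0.98). Kif5c, the other neuronal heavy chain, had 1926, 1198 and 2172, against 2066, 1643 and 1584 (log2 fold change −0.034 ± 0.30 SE, limma adjusted p 0.94). In both the groups overlap. Kif5b, the heavy chain found in all cells, and Kif1b, which carries synaptic vesicle precursors and mitochondria, also missed the test (0.7 and 0.87, limma adjusted p). Kif5b was called once the 3 libraries that stood apart were left out, with a log2 fold change of 0.565 ± 0.17 SE, limma adjusted p 0.0078. Over all 14 cargo kinesins, which take in Kifc3 from outside both lists, 1 rose (Kif3b, a kinesin-2 subunit) and 2 fell (Kif1c and the minus-end kinesin Kifc2). Kif3a, the partner of Kif3b, was 1477, 1353 and 1484 at 2.0 µM, against 1409.8, 1312 and 1379 in DMSO, and missed the test (0.44, limma adjusted p).

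Kif1bp showed the smallest p of the set. It had 2830.3, 2642 and 2673 normalized counts in vector in DMSO, 2224, 2168 and 2005 at 0.2 µM and 1434, 1532 and 1402 at 2.0 µM. The 3 doses do not overlap, and the level stepped down with each. At 2.0 µM it was 0.536 times that in DMSO (log2 fold change −0.90 ± 0.058 SE, limma adjusted p 1.8e-07), at 0.2 µM 0.785 times (log2 fold change −0.35 ± 0.058 SE, limma adjusted p 0.002), and 2.0 µM lay below 0.2 µM as well (log2 fold change −0.55 ± 0.058 SE, limma adjusted p 2.9e-05). All 3 calls held in all 29 alternatives. Its within-group correlation with the library axis was −0.194 over 14 libraries, weak beside those of the heavy chains below.

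Of the 5 subunits of dynein 1, 1 rose and 1 fell; differences between paired subunits were not tested. Dync1li2, a light intermediate chain that binds cargo adaptors, had 5451, 5379.7 and 5385 in vector in DMSO, 6576, 6364 and 6805 at 0.2 µM and 8015, 7022 and 8481 at 2.0 µM, with no overlap between doses. It rose at 2.0 µM (log2 fold change 0.53 ± 0.062 SE, limma adjusted p 1.8e-05) and at 0.2 µM (log2 fold change 0.28 ± 0.062 SE, limma adjusted p 0.009). The other light intermediate chain, Dync1li1, was not called (log2 fold change 0.058 ± 0.089 SE, limma adjusted p 0.62). Dync1i1, the neuronal intermediate chain through which dynein binds dynactin, had 4498, 4500.1 and 4358 in DMSO, 3929, 3942 and 3956 at 0.2 µM and 3295, 3112 and 3264 at 2.0 µM. It fell at 2.0 µM (log2 fold change −0.47 ± 0.050 SE, limma adjusted p 9.4e-06), again with no overlap between doses. Dync1i2, the intermediate chain found in all cells, had 2425, 2261 and 2376 at 2.0 µM, against 2535, 2498 and 2453 in DMSO, and missed the test (0.28, limma adjusted p). So did the heavy chain Dync1h1, the motor subunit itself, with 9346, 8593 and 9445, against 10025, 9998 and 9426 (0.16).

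Dynein light chains sit at the base of the complex. Dynll1, an LC8 light chain that also binds many other proteins, had 8338, 9085 and 9227 in vector in DMSO, 7078, 5618 and 5771 at 0.2 µM and 4731, 5564 and 4697 at 2.0 µM. It fell at 2.0 µM (log2 fold change −0.83 ± 0.12 SE, limma adjusted p 9.8e-05) and at 0.2 µM (log2 fold change −0.54 ± 0.12 SE, limma adjusted p 0.0099), and both FK506 doses lay under every DMSO library. Its LC8 relative Dynll2 fell less, with 10573, 10537 and 10509.9 at 2.0 µM, against 11802, 12293 and 11850.1 in DMSO (log2 fold change −0.185 ± 0.052 SE, limma adjusted p 0.01). Dynlt1, a Tctex light chain, went up, with 947, 1076 and 919.8 at 2.0 µM, against 623, 571 and 592 in DMSO (log2 fold change 0.72 ± 0.14 SE, limma adjusted p 0.00086), while its 0.2 µM libraries (747, 536 and 619) overlapped DMSO. LC8 and Tctex genes have close copies in rodent genomes, and how reads shared between copies were counted is not given in the sources used here, so their levels are uncertain.

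Of the 6 dynactin subunits, 0 rose and 3 fell at 2.0 µM in vector by limma (3 at an unadjusted p under 0.05, all lower): the dynamitin Dctn2, which holds the shoulder of the complex, and the pointed-end subunits Dctn5 and Dctn6. Dctn5 had 1442, 1473 and 1417 at 2.0 µM, against 1839, 1995 and 1967 in DMSO (log2 fold change −0.42 ± 0.078 SE, limma adjusted p 0.00072). Dctn2 had 7262, 8647 and 7063, against 9131, 9448 and 9882 (log2 fold change −0.31 ± 0.11 SE, limma adjusted p 0.028), and replicate 2, which stood apart, was the highest of its 2.0 µM libraries. The call for Dctn2 was lost in 4 of 17 fits that each left out a library, those without replicate 2 or 3 of vector in DMSO and without replicate 1 or 3 of vector at 2.0 µM, with adjusted p up to 0.11. Dctn1, the p150Glued subunit that binds dynein and microtubules, had 15647, 15865 and 16424, against 15326, 15502 and 15616, and missed the test (0.45, limma adjusted p).

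Outside transport, Kif9, a kinesin of motile cilia, had 78.2, 79.5 and 86.7 in vector in DMSO, 39.7, 47.0 and 57.3 at 0.2 µM and 52.7, 35.1 and 31.4 at 2.0 µM. It fell at 2.0 µM (log2 fold change −1.05 ± 0.20 SE, limma adjusted p 0.00082) and at 0.2 µM (log2 fold change −0.77 ± 0.20 SE, limma adjusted p 0.02). Ependymal markers, of which 3 of 6 were measured and 2 fell at 2.0 µM, summed to 297.4 to 392.3 at 2.0 µM, against 506.3 to 579.9 in DMSO. Their part in the Kif9 result was not tested. Kif2a, which shortens microtubules in neurites, missed the test (0.95, limma adjusted p).

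At 0.2 µM in vector 2 of the 49 genes rose (Dync1li2 and Klc4) and 8 fell (Kif9, Dynll1, Kif1bp, Dctn6, Dctn5, Klc1, Kif1c and Dync1i1), 20.4% of them against 18.3% of all genes (7.7% higher and 10.6% lower). The comparison of 2.0 µM with DMSO above uses the same DMSO libraries. Only Dync1li2, Dynll1 and Kif1bp kept the 0.2 µM call in all 29 alternatives. Leaving out the 3 libraries that stood apart gave 15 rises and 15 falls, against 52.4% of all genes, and the rises then took in Kif5a (0.96 ± 0.13 SE, limma adjusted p 2.1e-05), Kif5b (1.04 ± 0.17 SE, limma adjusted p 9.4e-05) and Kif1b (1.02 ± 0.14 SE, limma adjusted p 2.5e-05). These genes follow the axis on which those libraries stood apart, with within-group correlations of 0.998, 0.980 and 0.887. Their smaller scatter in that fit is therefore in part built in. Between the doses, 6 of 49 were higher at 2.0 than at 0.2 µM and 3 lower, 18.4% against 33.7% of all genes. The higher ones were Klc3, Kif22, Kifc1, Dynlt1, Klc4 and Dync1li2, and the lower ones Kif1bp, Dync1i1 and Dync2h1, the heavy chain of the ciliary dynein 2. Of all genes, 18% were higher and 15.7% lower between the doses. With the 3 libraries left out, 7 were higher and 12 lower, against 48% of all genes called.

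In A53T cultures at 2.0 µM against A53T in DMSO, 5 of 49 genes rose and 9 fell, 28.6% against 37.6% of all genes called (19.7% higher and 17.9% lower). Of the 21 genes called in vector and the 14 called in A53T, 10 were called in both and in the same direction, which is 47.6% and 71.4% of those lists, and 0 in opposite directions. Over all genes the shared calls made up 47.7% and 59.8%, with 119 in opposite directions. These comparisons share no library. The 5 shared rises were Dync1li2, Klc4, Dynlt1 and the mitotic Kif22 and Kifc1, and the 5 shared falls Kif1bp, Dynll1, Dync1i1, Dync2h1 and Kif1c. When the 3 libraries that stood apart were dropped, 5 rose and 12 fell, against 48.3% of all genes.

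Dync1li2 had 8726, 8973 and 9084 in A53T at 2.0 µM, against 6559 and 6652 in DMSO (log2 fold change 0.43 ± 0.069 SE, limma adjusted p 0.00063). Klc4 had 1601, 1342 and 1419.8, against 1028 and 958 (log2 fold change 0.55 ± 0.086 SE, limma adjusted p 0.0006), and Dynlt1 had 1466, 1099.5 and 1057, against 756 and 653 (log2 fold change 0.76 ± 0.15 SE, limma adjusted p 0.0025). Kif1bp had 1534, 1664 and 1563, against 2298 and 2280 (log2 fold change −0.53 ± 0.065 SE, limma adjusted p 0.00011). In each of these 4 genes every FK506 library lay on 1 side of both DMSO libraries, as in 64.5% of all genes, and each kept its call in all 29 alternatives. Dync1i1 fell to 3305, 3715 and 3388 in A53T at 2.0 µM, against 4308 and 4269.8 in DMSO (log2 fold change −0.31 ± 0.056 SE, limma adjusted p 0.0015). Dynll1 fell to 6224, 5112 and 4425, against 7411 and 7161 (log2 fold change −0.49 ± 0.13 SE, limma adjusted p 0.014), a call lost without either A53T library in DMSO.

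Whether the 2.0 µM effect differed between A53T and vector was tested as the difference of both effects. Of the 49 genes 2 passed, 4.08% against 14.6% of all genes (8.14% higher and 6.45% lower): Kif1bp fell by less in A53T (difference of log2 fold changes 0.37 ± 0.087 SE, limma adjusted p 0.015), and the effect on Dctn5 was higher in A53T (0.42 ± 0.12 SE, limma adjusted p 0.033). Dctn5 had 1623, 1458 and 1475 in A53T at 2.0 µM, against 1504 and 1535 in A53T in DMSO, and was not called there. Both genes were lower in A53T in DMSO than in vector in DMSO. The Kif1bp call was lost without either A53T library in DMSO, with adjusted p up to 0.073. The Dctn5 call was lost in 7 of 17 fits that each left out a library, those without either A53T library in DMSO, replicate 1 of A53T at 2.0 µM, replicate 2 or 3 of vector in DMSO, or replicate 1 or 3 of vector at 2.0 µM, with adjusted p up to 0.11. Dropping the 3 libraries that stood apart, 18 of 49 passed, against 37.8% of all genes.

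The mitotic kinesins gave the smaller set. At 2.0 µM in vector 3 of 8 rose and 0 fell by limma (3 at an unadjusted p under 0.05, all higher), 37.5% against 47.2% of all genes, with a median log2 fold change of 0.197. In A53T at 2.0 µM 2 of 8 rose and 0 fell (2 at an unadjusted p under 0.05, both higher), 25% against 37.6%, with a median of 0.338. These backgrounds count both directions; of all genes, 23.4% were higher in vector and 19.7% in A53T. With the 3 libraries that stood apart left out, Kif15 rose and Kif23 fell in vector at 2.0 µM, and Kif22 alone passed in A53T at 2.0 µM, so 1 rise and 1 fall stand in place of the 3 rises in vector. At 0.2 µM in vector 0 of 8 passed (1 at an unadjusted p under 0.05), with a median of −0.034. Their values are low, with means over all libraries of 12.1 to 104.4 normalized counts and 5 of 8 under 50. The list median of a library had a between-replicate SD of 0.211 on the log2 scale, against 0.086 for the transport list. That median rests on 8 genes here and 32 there, so these SDs do not compare single genes.

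**Figure D2:**
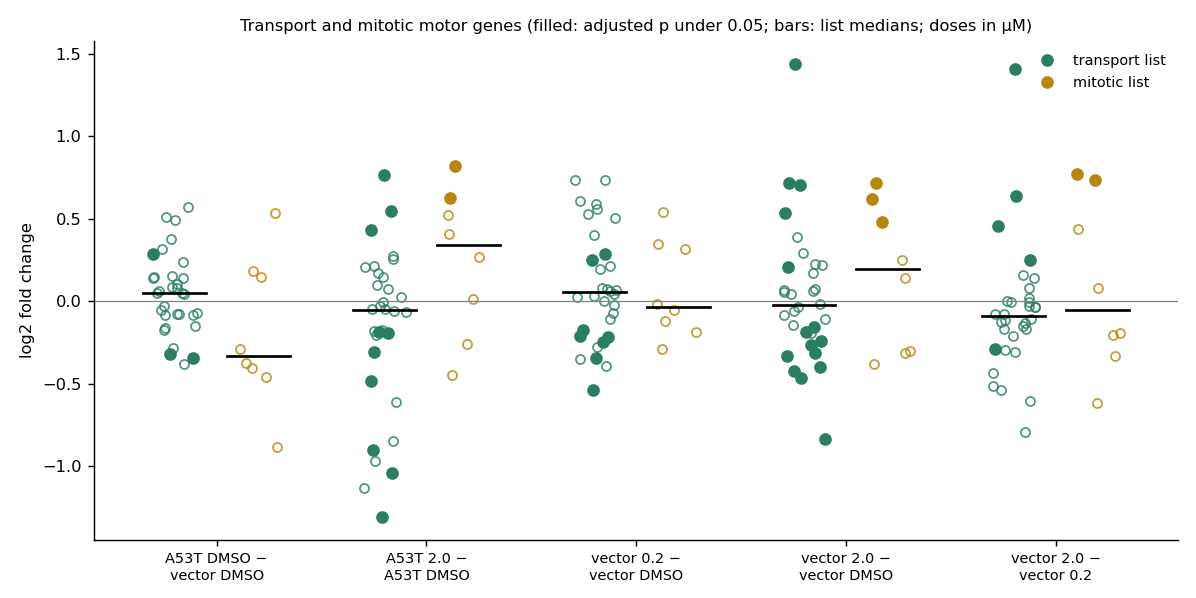
Log2 fold changes (vertical axis) of the 32 transport and 8 mitotic genes in 5 comparisons (horizontal axis, doses in µM); filled points passed the test, open points did not, and bars are the list medians. In vector at 2.0 µM the transport median is −0.025 and the mitotic median 0.197.

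Kif22, the chromokinesin that pushes chromosome arms, had 115, 159 and 116 normalized counts in vector at 2.0 µM, against 80.6, 105 and 91.6 in DMSO (log2 fold change 0.48 ± 0.18 SE, limma adjusted p 0.045). In A53T it had 212, 170.1 and 163 at 2.0 µM, against 102 and 102 in DMSO (log2 fold change 0.82 ± 0.20 SE, limma adjusted p 0.0087). The groups do not overlap in either construct. The vector call is close to the threshold and was lost in 8 of 17 fits that left out a library, those without either A53T library in DMSO, replicate 2 of A53T at 2.0 µM, replicate 1 or 3 of vector in DMSO, replicate 2 of vector at 0.2 µM, or replicate 2 or 3 of vector at 2.0 µM (adjusted p up to 0.18); without the 3 libraries that stood apart the log2 fold change was 0.33 ± 0.15 SE, limma adjusted p 0.07. Kif22 also followed the library axis, with a within-group correlation of −0.891. At 2.0 against 0.2 µM in vector it rose in all 17 such fits (log2 fold change 0.77 ± 0.18 SE, limma adjusted p 0.0063).

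Kifc1, a minus-end kinesin that bundles spindle poles, had 45.9, 57.2 and 41.5 in vector at 2.0 µM, against 27.6, 24.5 and 34.7 in DMSO (log2 fold change 0.72 ± 0.20 SE, limma adjusted p 0.01), and 33.1, 33.0 and 37.0 in A53T at 2.0 µM, against 23.6 and 20.3 in DMSO (log2 fold change 0.63 ± 0.22 SE, limma adjusted p 0.043). Both sets of groups stand clear of each other. Its axis correlation was −0.226. The vector call held in all 17 fits that left out a library and missed the threshold without the 3 libraries that stood apart (0.59 ± 0.25 SE, limma adjusted p 0.052), and the A53T call was lost in 7 of the 17, those without any A53T library in DMSO or at 2.0 µM, replicate 1 of vector in DMSO, or replicate 1 of vector at 2.0 µM (adjusted p up to 0.22), and without the 3 together (0.65 ± 0.275 SE, limma adjusted p 0.06). Kif15, which helps keep the spindle bipolar, had 107, 71.1 and 105 in vector at 2.0 µM, against 71.8, 54.0 and 55.8 in DMSO (log2 fold change 0.62 ± 0.22 SE, limma adjusted p 0.033). Replicate 2 at 2.0 µM, which stood apart, lay under the highest DMSO library. The Kif15 call was lost without replicate 2 or 3 of vector in DMSO and without replicate 1 or 3 of vector at 2.0 µM (adjusted p up to 0.12). In A53T, Kif15 missed the test, with 57.6, 95 and 71.0 at 2.0 µM, against 103 and 74.5 in DMSO (0.41, limma adjusted p).

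Other spindle motors were not called. Kif23, the central spindle kinesin, had 70.2, 99.2 and 90.1 in vector at 2.0 µM, against 107, 121 and 108 in DMSO, lower in every library yet past no threshold in the full fit (log2 fold change −0.38 ± 0.19 SE, limma adjusted p 0.12). Kif11, the motor that slides spindle poles apart, had 17.6, 8.0 and 15.2, against 17.6, 13.3 and 18.5 (log2 fold change −0.31 ± 0.39 SE, limma adjusted p 0.54). Kif18a, Kif18b and Kif20b were not called either. Of the mitotic genes with a CHR in the window, Kif15, Kif22 and Kifc1 were called at 2.0 µM in vector and Kif20b and Kif23 were not; Kif11, Kif18a and Kif18b, without one, were not called. Markers of dividing cells, 5 of 7 measured, summed to 247.9 to 287.0 in vector at 2.0 µM, against 189.6 to 251.3 in DMSO, and 1 of them rose. Their part in the mitotic result was not tested.

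**Figure D3:**
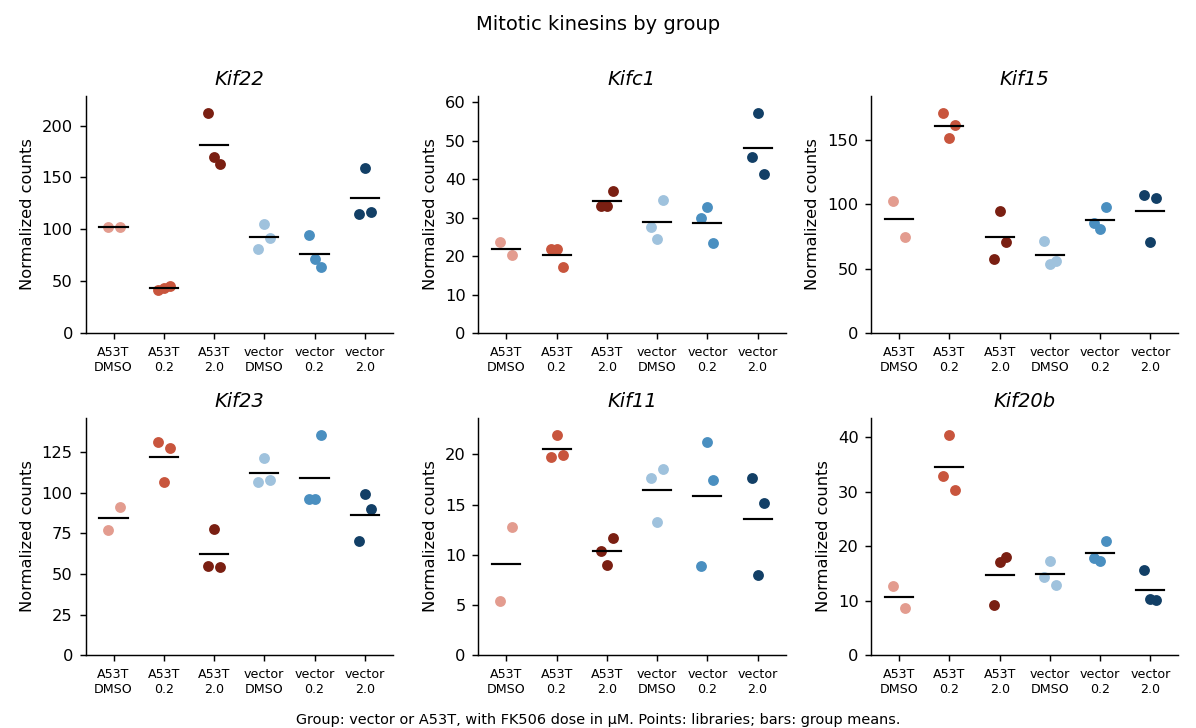
Normalized counts (vertical axes, from 0) of 6 mitotic kinesins in every library, by group with the FK506 dose in µM; points are libraries and bars are group means. Kif22 and Kifc1 lie higher at 2.0 µM than in DMSO in both A53T and vector cultures, while Kif23 and Kif11 were not called there.

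In A53T in DMSO against vector in DMSO 1 of 49 genes rose and 3 fell, 8.16% against 14% of all genes (5.85% higher and 8.19% lower). Dync1li2 rose, with 6559 and 6652 in A53T, against 5451, 5379.7 and 5385 in vector (log2 fold change 0.29 ± 0.069 SE, limma adjusted p 0.015). Kifc2, a minus-end kinesin of neurons, fell to 5382 and 5296, against 6597, 6788 and 6566 (log2 fold change −0.32 ± 0.061 SE, limma adjusted p 0.0049). Kif1bp fell to 2298 and 2280, against 2830.3, 2642 and 2673 (log2 fold change −0.245 ± 0.065 SE, limma adjusted p 0.024), and Dctn5 to 1504 and 1535, against 1839, 1995 and 1967 (log2 fold change −0.35 ± 0.087 SE, limma adjusted p 0.02). All 4 genes separate the groups without overlap, as do 29 of the 49 and 60.4% of all genes, and all 4 calls were lost without either A53T library. Dctn5 also lost its call without replicate 2 or 3 of vector in DMSO (adjusted p up to 0.14), and Kif1bp without replicate 1 or 3 (adjusted p up to 0.15). Of the 8 mitotic genes 0 passed by limma (1 at an unadjusted p under 0.05, Kif15, higher), with a median of −0.332. Leaving out the 3 libraries gave 11 rises and 8 falls among the 49, against 39% of all genes, and the rises then took in Kif5a (0.57 ± 0.13 SE, limma adjusted p 0.0026).

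At 2.0 µM, A53T and vector differed in 6 of 49 genes, 12.2% against 19.6% of all genes (9.88% higher and 9.7% lower). Dync1li2, Dynll2 and Dynlrb1 were higher in A53T, and Klc3, Kif3c and Kifc2 lower. Kifc2 had 5283, 5351 and 4691 in A53T, against 5926, 5946 and 6032 in vector (log2 fold change −0.23 ± 0.055 SE, limma adjusted p 0.013), so it lay under vector at 2.0 µM as in DMSO. Klc3 had 20.1, 10 and 8.5, against 28.3, 31.2 and 29.3 (log2 fold change −1.23 ± 0.32 SE, limma adjusted p 0.018), though the difference between its FK506 effects missed the test (0.11, limma adjusted p). Kif3c, a neuronal kinesin-2 subunit, had 2576, 3080.5 and 3472, against 3919, 3484 and 4127 (log2 fold change −0.34 ± 0.11 SE, limma adjusted p 0.045). Replicate 1 in A53T, which stood apart, was its lowest library. Of the 6 calls, that for Kifc2 held in all 17 fits that left out a library. Klc3 and Dynll2 lost theirs without replicate 2 of A53T at 2.0 µM or replicate 1 or 3 of vector at 2.0 µM, with adjusted p up to 0.062 and 0.075. Kif3c lost its call in 10 fits, Dynlrb1 in 11 and Dync1li2 in 12, and the Dynlrb1 libraries of A53T and vector at 2.0 µM overlap. Without the 3 libraries, 18 of 49 were called, against 33.5% of all genes.

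Several motor genes followed the library axis closely, among them the heavy chains of conventional kinesin. Over the 14 libraries outside A53T at 0.2 µM, deviations from the group means correlated with the axis at 0.998 for Kif5a, 0.981 for Kif5c, 0.980 for Kif5b, 0.968 for Kif3c and 0.928 for Kif21b, a dendritic kinesin. At the other end stood Dctn3 at −0.994, Dynll1 at −0.991, Dynlrb1 at −0.988, Klc1 at −0.985 and Dctn2 at −0.982. These are descriptions, since the axis was drawn from the same libraries. Above 0.8 lay 26.5% of the 49 genes and 18.6% of all genes, and below −0.8 18.4% and 21.5%. Heavy chains of the kinesin-1 motor and its light chain Klc1 thus lay at opposite ends of the axis.

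**Figure D4:**
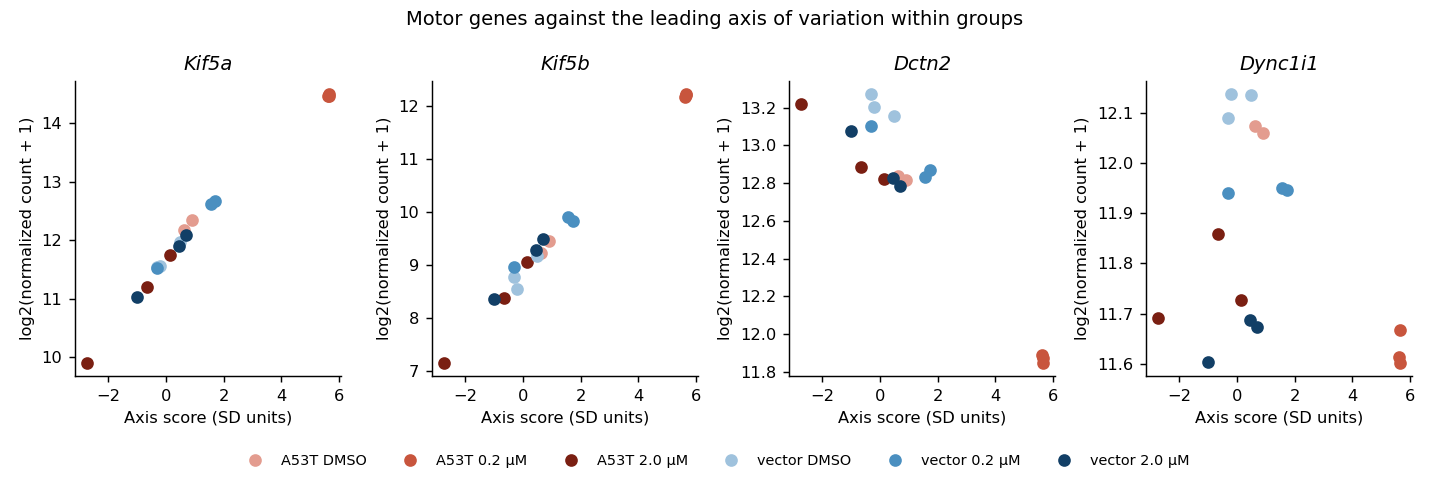
Log2(normalized count + 1) of 4 motor genes (vertical axes) against the axis score in SD units (horizontal axes); each point is a library, coloured by group. Kif5a and Kif5b climb with the score and Dctn2 descends, with A53T at 0.2 µM far to the right, whereas the DMSO and 2.0 µM vector libraries of Dync1i1 separate at like scores.

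The calls for Kif5a, Kif5c and Kif21b in A53T at 2.0 µM were lost when some single libraries were left out. In A53T at 2.0 µM, Kif5a had 961, 2360.1 and 3428, against 4599.6 and 5238 in DMSO (log2 fold change −1.31 ± 0.48 SE, limma adjusted p 0.047). The value of 961 belongs to replicate 1, the library at an axis score of −2.73. The call was lost in 11 of 17 fits that each left out a library, those without replicate 1 or 2 of A53T at 2.0 µM, either A53T library in DMSO, any vector library in DMSO, replicate 2 or 3 of vector at 0.2 µM, or replicate 1 or 3 of vector at 2.0 µM. It was kept without the 3 libraries that stood apart, with a smaller change (−0.79 ± 0.14 SE, limma adjusted p 0.0003). It was also kept with the axis score as a covariate (−0.17 ± 0.048 SE, limma adjusted p 0.0076). The axis was drawn from these same libraries, and Kif5a follows it at 0.998. Both fits thus narrow its scatter by construction, and a call kept there is no independent support. Kif5c had 793, 1224 and 1624, against 1983 and 2392 (log2 fold change −0.90 ± 0.33 SE, limma adjusted p 0.049), and lost its call in the same number of fits and with the covariate (−0.12 ± 0.076 SE, limma adjusted p 0.21). Kif21b had 114, 161 and 195, against 282 and 352 (log2 fold change −1.04 ± 0.35 SE, limma adjusted p 0.034), and lost it in 4 of 17, those without either A53T library in DMSO or replicate 1 or 2 of A53T at 2.0 µM.

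A53T at 0.2 µM differed from A53T in DMSO in 20 genes upward and 17 downward of the 49, 75.5% against 67.8% of all genes (33.6% higher and 34.2% lower), and 22 and 17 against 75% without the 3 libraries that stood apart. Here the group, the axis and the near-identity of its libraries cannot be told apart, and the group enters the test as 1 sample. Of the 14 cargo kinesins 11 were higher, and of the 6 dynactin subunits 5 were lower. Kif1b had 15889, 15467 and 15486 in A53T at 0.2 µM, against 1094 and 1382 in DMSO (log2 fold change 3.665 ± 0.47 SE, limma adjusted p 6.1e-05). Kif5b had 4722, 4617 and 4754, against 598 and 697 (log2 fold change 2.86 ± 0.64 SE, limma adjusted p 0.0018). Kif5a had 23010.3, 22583 and 22557, against 4599.6 and 5238 (log2 fold change 2.21 ± 0.64 SE, limma adjusted p 0.0085), and Dync1h1 had 22892, 22528 and 22807, against 9983 and 10318 (log2 fold change 1.16 ± 0.087 SE, limma adjusted p 2e-06). In all 4, the 0.2 µM libraries exceed every other library of the study; libraries of this group and of A53T in DMSO do not overlap in 89.4% of all genes.

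Downward in the same group went Dctn2, with 3740.4, 3783 and 3683, against 7328 and 7219 (log2 fold change −0.96 ± 0.16 SE, limma adjusted p 0.00029), and Dynll1, with 2572, 2484 and 2418, against 7411 and 7161 (log2 fold change −1.55 ± 0.18 SE, limma adjusted p 3.1e-05). Kif22 had 41.3, 43.6 and 45.5, against 102 and 102 (log2 fold change −1.21 ± 0.27 SE, limma adjusted p 0.0019), although it rose at 2.0 µM. With the axis score as a covariate, added after seeing the data, the log2 fold change turned for Kif5a (−0.77 ± 0.089 SE). For Kif5b it was near 0 (−0.063 ± 0.21 SE), and for Kif1b it stayed positive (1.72 ± 0.295 SE). The axis was drawn from the other libraries, which score −2.73 to 1.721, while this group scores 5.616 to 5.67. The direction in that fit therefore rests on extrapolation and was not tested otherwise.

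Partners of the motors were read from lists. Of 37 transport adaptors and regulators, 34 were measured, Kif1bp among them; at 2.0 µM in vector 10 rose and 9 fell, 55.9% against 47.2% of all genes, and in A53T at 2.0 µM 4 rose and 7 fell, 32.4% against 37.6%. Bicd2, an adaptor that joins dynein to dynactin, had 2071, 1976 and 2091 in vector at 2.0 µM, against 1299.5, 1305 and 1374 in DMSO (log2 fold change 0.625 ± 0.051 SE, limma adjusted p 1e-06), and rose in A53T as well (log2 fold change 0.27 ± 0.057 SE, limma adjusted p 0.0033). Actr1b, an actin-related protein of the dynactin filament, rose in vector (log2 fold change 0.68 ± 0.064 SE, limma adjusted p 3.3e-06) and in A53T (log2 fold change 0.52 ± 0.072 SE, limma adjusted p 0.00025). Of the 6 dynactin subunits above, 0 rose at 2.0 µM in either construct. Actr1a, another actin-related protein on this list, had 6627, 6835 and 6757 in vector at 2.0 µM, against 7257, 7277 and 7665 in DMSO. In A53T its groups overlapped. Ndel1, a dynein regulator, and Rhot2, the Miro protein that couples mitochondria to motors, rose in vector at 2.0 µM (log2 fold change 0.48 ± 0.053 SE, limma adjusted p 1.3e-05 for Ndel1, and log2 fold change 0.51 ± 0.059 SE, limma adjusted p 1.8e-05 for Rhot2). In A53T in DMSO against vector in DMSO, 3 of the 34 rose and 4 fell, 20.6% against 14% of all genes. Hap1, the huntingtin-associated adaptor, rose to 10200.3 and 9387, against 6762, 6702 and 6748 (log2 fold change 0.54 ± 0.054 SE, limma adjusted p 9.5e-05), and Fez1, a kinesin-1 adaptor, fell to 7765 and 7982, against 12746, 12636 and 13295 (log2 fold change −0.71 ± 0.079 SE, limma adjusted p 0.00016). Fits that left out a library are not given for these adaptors.

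Mitotic partners at 2.0 µM moved upward where they passed the test. Of 25 listed, 16 were measured; 7 rose and 0 fell at 2.0 µM in vector by limma (7 at an unadjusted p under 0.05, all higher), 43.8% called against 47.2% of all genes, and 3 rose and 0 fell in A53T (5 at an unadjusted p under 0.05, all higher), 18.8% against 37.6%. Both shares called in either direction lie below the background. Higher calls alone made up 43.8% in vector, against 23.4% of all genes, and 18.8% in A53T, against 19.7%. Prc1, which bundles the central spindle, had 67.3, 65.3 and 71.8 in vector at 2.0 µM, against 22.2, 27.5 and 34.9 in DMSO (log2 fold change 1.265 ± 0.22 SE, limma adjusted p 0.00038). Tpx2, a spindle assembly factor, had 95.6, 85.5 and 90.0, against 57.3, 29.6 and 30.3 (log2 fold change 1.26 ± 0.22 SE, limma adjusted p 0.0005), and rose in A53T too (log2 fold change 1.16 ± 0.25 SE, limma adjusted p 0.0037). Racgap1, the partner of Kif23 in the centralspindlin complex, had 84.9, 57.5 and 67.8, against 38.7, 35.7 and 36.1 (log2 fold change 0.89 ± 0.16 SE, limma adjusted p 0.00056), while Kif23 itself was not called.

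The tracks on which these motors run were read from 21 tubulin and microtubule-associated genes. At 2.0 µM in vector 14 fell and 1 rose, so 66.7% fell, against 23.8% of all genes. In A53T at 2.0 µM 6 fell and 2 rose, so 28.6% fell, against 17.9% of all genes. At 0.2 µM in vector 11 fell and 0 rose (13 at an unadjusted p under 0.05, all lower), so 52.4% fell, against 10.6% of all genes. How far the libraries that stood apart move the counts of this list was not tested. In A53T against vector at 2.0 µM 6 were higher and 0 lower by limma (10 higher and 2 lower at an unadjusted p under 0.05), 28.6% higher against 9.88% of all genes. Tubb4a, a β-tubulin of the brain, had 9651, 9740.1 and 9607 in vector in DMSO, 6527, 6790 and 6293 at 0.2 µM and 4849, 4916 and 4971 at 2.0 µM, stepping down with no overlap (log2 fold change −0.98 ± 0.047 SE, limma adjusted p 2.7e-08 at 2.0 µM). Tubb3, the neuronal β-tubulin and also a neuron marker, fell at 2.0 µM in vector (log2 fold change −0.36 ± 0.041 SE, limma adjusted p 1.5e-05) and in A53T (log2 fold change −0.24 ± 0.046 SE, limma adjusted p 0.0019).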

How the data were processed

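Per the labels' protocols, RNA was extracted from the cortical cultures and made into libraries, 17 in all, with a stranded mRNA kit. FastQC, TopHat, HTSeq and the build rn6 stand in the submitters' processing notes, without versions. The signal values deposited by the authors are normalized gene counts; the method of normalization is not given in the sources used here. Whole reads were not recovered: in 6 of 17 libraries 95% or more of the values lay within 0.05 step of a whole read, so no count test was run, raw depth is unknown and no counting interval is given.

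Log2(value + 1) was fitted with limma 3.58.1 (trend=TRUE, R 4.3.3), 1 mean per group and 8 contrasts; p-values were adjusted by Benjamini-Hochberg across the 11247 genes, with calls under 0.05. This scale understates changes of low genes. A minimum mean of 1 removed 0 genes, so all 49 motor genes were tested. The 3 near-identical libraries of A53T at 0.2 µM were averaged into 1 sample, assumed to vary as other samples do; the fit then had 15 samples and 9 residual degrees of freedom. Nothing says that libraries came from separate cultures, so p-values measure only how these samples scatter, and that scatter may be technical. Alternatives were other pseudocounts, filters, quantile normalization, trend=FALSE, all 17 libraries, only the groups compared, replicate blocks, libraries left out, and the axis score as a covariate, the last added after seeing the data.

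The motor genes and all lists were chosen with earlier results of these data known. Values are given for a core set of motor subunits, for the 6 highest and 6 lowest changes among called motor genes in each comparison, and for at most 5 genes per other list by smallest p. Actr1a was added to these beside Actr1b. Promoter windows come from RefSeq (GRCr8) and were used for letters only, since the counts were made on rn6.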

Additional observations from a re-analysis of the deposited data

Results flagged for a closer look

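Only 2 motor genes met a rule for a closer look, both because the test of the difference between the 2.0 µM effects in A53T and in vector passed the threshold. For Kif1bp, the kinesin-binding protein, the difference of log2 fold changes was 0.37 ± 0.09 SE (limma adjusted p 0.015): it fell in both constructs, by 0.53 in A53T and by 0.90 in vector on the log2 scale. For Dctn5, a pointed-end subunit of dynactin, the difference was 0.42 ± 0.12 SE (limma adjusted p 0.033), with a log2 fold change of −0.002 in A53T and −0.42 in vector. The Kif1bp call was lost in 2 and the Dctn5 call in 7 of the 17 fits that each left out a library, with adjusted p up to 0.073 and 0.11.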

How the results depend on the processing

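Of the single-gene results, 5227 kept their side of the threshold under an alternative, 248 lost the threshold, 139 passed it newly and 9 reversed. The cause was not tested for any. Among the 5227, called results also kept their direction, while results uncalled in both fits were not checked for direction. A reversal was counted only where the main fit or the alternative made a call. Reversals under quantile normalization, which shifted the median of all genes by −0.203 in A53T at 0.2 µM against DMSO, were Klc1 at 0.2 µM in vector (0.049) and, in that A53T comparison, Dctn1 (0.069) and Dynll2 (0.006). With the axis score as a covariate, Dctn2 reversed in A53T at 2.0 µM against DMSO (−0.117), Dynll1 in A53T against vector at 2.0 µM (−0.124), and Dync1i2 (−0.254), Kif13b (−0.152), Kif5a (−0.774) and Kif5b (−0.063) in A53T at 0.2 µM against DMSO.

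Counts of called motor genes moved by over 1.5 times as follows. Without the 3 libraries that stood apart they were 19 for A53T against vector in DMSO, 30 for 0.2 µM in vector, 19 between doses, 18 for A53T against vector at 2.0 µM and 18 for the difference of the 2.0 µM effects. With the axis covariate they were 13 for A53T against vector in DMSO, 18 between doses, 22 for A53T at 0.2 µM against DMSO, 12 for A53T against vector at 2.0 µM and 10 for the difference of effects. Fitting only the groups compared gave 19 for A53T against vector in DMSO, 6 for A53T at 2.0 µM against DMSO and 0 for A53T against vector at 2.0 µM. Quantile normalization gave 6 for 0.2 µM in vector, 14 between doses and 3 for A53T against vector at 2.0 µM. Trend=FALSE gave 3 for that last comparison and 1 for the difference of effects, where all 17 libraries gave 6.

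Replicate numbers showed no clear pairing of the samples. Over 22 pairs of same-numbered libraries the correlations of their deviations ran from −0.51 to 0.669, with 9 over 0.1. Pairs with different numbers ran from −0.64 to 0.642. Groups hold few libraries and the leading axis holds 54.3% of their scatter, so this check cannot exclude a smaller pairing. Both replicate blocks left out A53T at 0.2 µM. The block by title numbers also dropped the unnumbered library, so A53T in DMSO kept 1 library there. Counts that use A53T in DMSO are not given for that block. It gave 4 called motor genes for 0.2 µM in vector and 2 for A53T against vector at 2.0 µM. With the replicate block by column numbers the counts were 5 for 0.2 µM in vector, 9 for A53T at 2.0 µM against DMSO and 1 for the difference of effects. How much of these shifts came from the dropped libraries was not tested.

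List medians moved as follows. A mean of at least 20, which leaves fewer mitotic genes, gave mitotic medians of −0.112 for A53T against vector in DMSO, 0.551 for 2.0 µM in vector, 0.408 between doses, 0.212 for A53T at 0.2 µM and −0.404 for A53T against vector at 2.0 µM. Quantile normalization gave mitotic medians of 0.686 for A53T at 2.0 µM, 0.145 for A53T at 0.2 µM, 0.06 for A53T against vector at 2.0 µM and 0.367 for the difference of effects, and a transport median of −0.155 for A53T at 2.0 µM. With the axis covariate the mitotic medians were 0.157 between doses, −0.026 for A53T at 0.2 µM and 0.145 for A53T against vector at 2.0 µM, and the transport medians −0.094 for A53T at 0.2 µM and 0.027 for the difference of effects. Without the 3 libraries that stood apart the transport median was 0.116 for 2.0 µM in vector.

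Leaving out each library in turn gave 0 to 5 called motor genes for A53T against vector in DMSO, 3 to 15 for 0.2 µM in vector, 14 to 21 for 2.0 µM in vector, 9 to 12 between doses, 6 to 18 for A53T at 2.0 µM, 35 to 38 for A53T at 0.2 µM, 1 to 9 for A53T against vector at 2.0 µM and 0 to 8 for the difference of effects. In the same order, transport medians ran 0.043 to 0.063, 0.045 to 0.063, −0.11 to 0.116, −0.121 to −0.055, −0.069 to −0.024, 0.043 to 0.066, −0.038 to 0.021 and −0.114 to −0.046, and mitotic medians −0.35 to −0.196, −0.06 to 0.126, 0.036 to 0.313, −0.147 to 0.198, 0.215 to 0.515, 0.526 to 0.767, −0.28 to 0.05 and −0.023 to 0.198. Where this left A53T in DMSO with 1 sample, that sample was assumed to vary like the others.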

Other observations

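Kif5a and Dctn2 are next to each other on chromosome 7 in the gene order of RefSeq build GRCr8. Their deviations within groups correlated with the library axis at 0.998 for Kif5a and −0.982 for Dctn2 over 14 libraries, so the neighbours lay at opposite ends of it. In A53T at 0.2 µM the fitted fold of value + 1 over A53T in DMSO was 4.628 for Kif5a and 0.514 for Dctn2. The strand setting of the counting is not given in the sources used here.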
